A study of Mus musculus with 54 samples.

Results

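Smc3 occupancy was compared between neural progenitor cells (NPCs) and the mouse embryonic stem cells (ESCs) they were made from, in cells whose CTCF was replaced by a wild-type copy. Peaks of the 2 NPC and the 2 ESC libraries that overlapped by at least 1 bp were merged, which gave 30280 Smc3 sites, of 75882 sites over the peak lists of the whole series. The members examined here are those called in both libraries of one cell type and in neither library of the other. In the full lists they were 1868 NPC-only sites (6.17% of 30280) and 75 ESC-only sites (0.248%). When each library was held to its 8169 peaks with the highest −log10 q (the significance given by the peak caller), they were 809 NPC-only sites (6.51% of 12419) and 622 ESC-only sites (5.01%). "Only" describes peak calls and not absence of the protein.

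The study asked how CTCF and its RNA-binding zinc finger 1 shape cell-specific chromatin loops, and mapped CTCF, Rad21 and Smc3 by chromatin immunoprecipitation and sequencing (ChIP-seq). NPCs of the CTCF-WT rescue were obtained from the same line as the ESCs by 2 days of differentiation on laminin in N2B27 medium, whereas ESCs were grown in that medium with LIF, CHIR99021 and PD0325901. Both groups were E14 cells, derived through single-cell clones, with an auxin-inducible (AID2) degron on endogenous CTCF, an OsTIR1 variant at Rosa26, an mCherry reporter at Mnx1 and doxycycline-inducible wild-type CTCF. Both received 1 uM 5-Ph-IAA, an auxin analog that triggers degradation of the tagged endogenous protein, and 1 ug/ml doxycycline, which induces the rescue copy, for 24 h. The ΔZF1 rescue cells, used here as libraries outside the selection, came from the same degron clone but are a different single-cell clone, whose induced CTCF lacked zinc finger 1, so clone and rescue copy cannot be told apart. NPCs of unmodified E14 cells, also read here, carried no degron or rescue copy. They were differentiated for 2 days, and no 5-Ph-IAA or doxycycline treatment is listed for them. No RNA was analysed, so the cell types could not be checked against expression of their markers. The study calls the libraries biological replicates, but neither it nor the labels say that they came from separate cultures, so p-values measure the spread between these libraries, which may be technical.

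Smc3 and Smc1a form the hinged arms of the cohesin ring, which Rad21 closes. Cohesin extrudes chromatin into loops and is held where CTCF, bound to its asymmetric motif, faces it, so that most cohesin peaks in mammalian cells lie on CTCF motifs. Cohesin is also found at active promoters and enhancers, where its loader NIPBL accumulates, and these sites need no CTCF. As ESCs leave pluripotency, enhancers and promoters are exchanged while most CTCF sites are known to be shared between cell types.

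The 3 highest sites of each direction at equal peak numbers, by mean percentile of fold enrichment in the calling libraries, illustrate the kinds of DNA under the switched peaks. The lines give 101 bases of the plus strand (build mm10) centred on the summit, and capitals mark the best match to the 14-letter CTCF core with at most 2 mismatches on either strand. Distances run from the gene start to the summit, negative when upstream. The NPC-only sites lay at chr9:105617429-105617529 (−25551 bp from the start of Pik3r4, a regulatory subunit of class III PI 3-kinase), chr4:46781238-46781338 (an intron of Gabbr2, a GABA-B receptor subunit) and chr10:13564800-13564900 (−11708 bp from Pex3, a peroxisome biogenesis factor). The ESC-only sites lay at chr5:147115783-147115883 (38285 bp downstream of the start of Polr1d, a subunit shared by RNA polymerases I and III), chr4:140259061-140259161 (−12327 bp from Igsf21) and chr16:18052747-18052847 (−63 bp from Dgcr6).
Pik3r4: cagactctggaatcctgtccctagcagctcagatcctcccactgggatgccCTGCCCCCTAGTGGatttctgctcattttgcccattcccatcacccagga
Gabbr2: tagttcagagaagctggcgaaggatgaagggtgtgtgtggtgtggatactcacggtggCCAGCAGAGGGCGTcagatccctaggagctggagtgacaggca
Pex3: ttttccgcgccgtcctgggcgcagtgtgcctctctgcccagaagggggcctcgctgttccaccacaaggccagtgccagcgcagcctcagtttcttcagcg
Polr1d: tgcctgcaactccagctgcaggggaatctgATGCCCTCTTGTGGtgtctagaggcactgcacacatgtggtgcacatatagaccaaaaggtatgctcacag
Igsf21: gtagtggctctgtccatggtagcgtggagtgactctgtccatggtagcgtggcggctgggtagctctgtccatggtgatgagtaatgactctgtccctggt
Dgcr6: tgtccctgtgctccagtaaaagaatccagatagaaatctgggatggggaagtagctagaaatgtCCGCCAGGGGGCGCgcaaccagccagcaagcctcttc

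The Pik3r4 window held an exact core on the minus strand, the Gabbr2 and Dgcr6 windows a core with 1 mismatch on the plus strand, and the Polr1d window a core with 2 mismatches on the minus strand. The Pex3 and Igsf21 windows held no match at that limit, their best having 3 and 5 mismatches. The Igsf21 window held the 12 letters ctctgtccatgg 3 times, where no 12-letter run recurred in the other windows, and the Polr1d summit lay in an annotated repeat. At the Igsf21 site none of the 8 CTCF libraries of WT rescue cells had a peak.

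The 4 libraries differed in peak number. NPC replicates 1 and 2 had 27798 and 13710 peaks, and ESC replicates 1 and 2 had 17880 and 8169. The median fold enrichment over local background at the summit was 9.25 and 6.80 in the NPC libraries, against 7.80 and 5.84 in the ESC libraries. The genome-wide coverage recovered from the peak statistics went the other way, at 2.13 and 2.30 fragments per bp in NPCs and 2.49 and 3.51 in ESCs, so the library with the fewest peaks had the highest background coverage. The part of library quality in the peak numbers was not tested. Sets of called sites were not most alike within a cell type, since 2 of the 4 pairs between the cell types overlapped more than either pair within one. The Jaccard index (shared over all sites of a pair) was 0.440 within NPCs and 0.417 within ESCs, against 0.275 to 0.567 between NPCs and ESCs. With peak numbers equalised it was 0.686 within NPCs, 0.589 within ESCs and 0.503 to 0.624 between them. The same-cell pair was then the most alike for NPCs, but the ESC pair was less alike than replicate 1 of both cell types.

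Most sites called in both libraries of one cell type were also called in both of the other. Over all sites, 6512 of 30280 (21.5%) were called in all 4 libraries, and 4621 of 12419 (37.2%) at equal peak numbers. Of the 12636 sites called in both NPC libraries, 51.5% were called in both ESC libraries, and of the 7634 sites called in both ESC libraries, 85.3% were called in both NPC libraries. With equal numbers the shares were 69.7% of 6632 NPC sites and 76.5% of 6042 ESC sites. Retention followed enrichment: from the lowest to the highest quartile of fold percentile, 21.6%, 40.4%, 58.0% and 86.2% of the NPC sites were in both full ESC lists, and 71.8%, 83.6%, 88.5% and 97.3% of the ESC sites were in both full NPC lists. Only 1.01% of the NPC sites and none of the 1909 ESC sites in the highest quartile had no peak in either library of the other cell type.

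**Figure D1:**
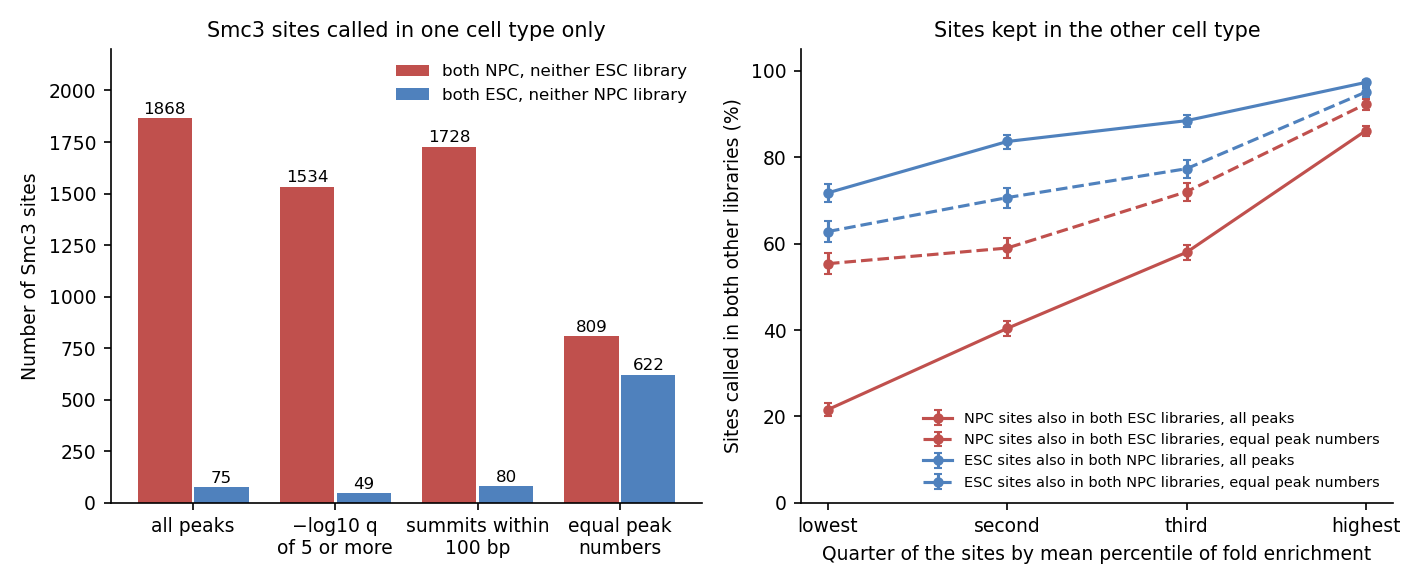
Left, number of Smc3 sites called in both libraries of one cell type and neither of the other, under 4 settings (NPC-only red, ESC-only blue), and right, percentage of sites called in both libraries of one cell type that were also called in both libraries of the other, by quartile of mean percentile of fold enrichment, with 95% Wilson intervals (solid lines, all peaks, dashed lines, equal peak numbers). The 1868 to 75 imbalance of the full lists becomes 809 to 622 at equal peak numbers, and retention is highest in the top quartile on every line.

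The switched sites were weak in the full lists. Ranked among all peaks of a library by fold enrichment, the NPC-only sites had a median percentile of 42.1 and 23.9 in NPC replicates 1 and 2, where sites called in all 4 libraries had 85.5 and 70.1. The ESC-only sites stood at 21.7 and 15.6 in ESC replicates 1 and 2, where sites called in all 4 had 78.2 and 56.9. Members chosen at equal peak numbers were stronger, with medians of 80.8 and 63.9 for the 809 NPC-only sites in NPCs and of 72.9 and 43.8 for the 622 ESC-only sites in ESCs. Where a list was shortened, the cut to the highest −log10 q favoured higher percentiles in advance, so the rise is no separate result. The last peak kept had a −log10 q of 42.3 and 12.6 in NPC replicates 1 and 2 and of 23.4 and 2.02 in ESC replicates 1 and 2, and in the 3 shortened lists the first peak left out had the same rounded value as the last one kept.

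Equal peak numbers mostly chose sites that were weaker, and not missing, in the other cell type. Of the 809 NPC-only sites, 630 had a peak in the full list of ESC replicate 1, at a median percentile of 31.0, and none had one in ESC replicate 2, whose list is the same in both settings. Of the 622 ESC-only sites, 611 had a peak in the full list of NPC replicate 1, at a median percentile of 54.7, and 295 had one in NPC replicate 2, at 25.9. Only 179 NPC-only and 11 ESC-only sites were switched both in the full lists and at equal peak numbers. The 11 ESC-only sites, whose names were chosen after their values were seen, lay in or nearest to Igsf8, Sulf2, Zfp64, Gm43917, 4930479D17Rik, Cdh3, Dyx1c1, Gm15963, Gsc, 2210420H20Rik and Neurl1a. All 11 held the CTCF motif, none lay within 1 kb of a gene start, and none had a Rad21 peak in either NPC library of WT rescue cells. At equal peak numbers 86.5% of all sites held the motif and 13.1% lay within 1 kb of a gene start. Rad21 peaks of those NPC libraries covered 10.5% and 25.9% of the 622 ESC-only sites. No test was run on the 11 sites.

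The full-list members were a mixture of promoter peaks and CTCF-motif peaks. Of the 1868 NPC-only sites, 29.9% had their summit within 1 kb of an annotated gene start, and of the 75 ESC-only sites 24.0%, against 13.4% of sites called in all 4 libraries and 16.7% of all sites. A CTCF core match within 50 bp of the summit was present at 66.4% of NPC-only sites, 64% of ESC-only sites, 90.1% of sites called in all 4 and 75.9% of all sites. In windows shifted by 1000 bp it was found at 2.73%, 1.33%, 3.44% and 2.98%. These features were not used to choose the sites, and no test was run on them.

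The 559 promoter-proximal NPC-only sites differed from the 1309 farther ones. They had a median GC content of 70.1% against 51.2%, held the CTCF motif at 35.6% against 79.6%, and were faint, with a median percentile of 12.5 and 10.9 in NPC replicates 1 and 2 against 51.3 and 31.9 for the farther sites. Rad21 peaks of NPC WT rescue replicates 1 and 2 covered 1.61% and 5.37% of them and 7.03% and 17.3% of the farther sites. Smc3 peaks of the ΔZF1 NPC libraries covered 88.9% and 98.0% of them and 90.8% and 89.5% of the farther sites. In ΔZF1 ESC libraries Smc3 peaks covered 22.7% and 27.4% of the promoter-proximal and 41.1% and 17.2% of the farther NPC-only sites. The Rad21 lists were much shorter (4774 and 8144 peaks in the WT NPC libraries). Over all 30280 sites the motif was present at 43.4% of those within 1 kb of a gene start and 82.4% of the farther ones. The motif difference by position was therefore not particular to the NPC-only sites. The 18 promoter-proximal ESC-only sites had a median GC content of 72.6%, and 16.7% of them held the CTCF motif. Smc3 peaks covered 66.7% and 83.3% of them in ΔZF1 NPC libraries, more than the 44.4% and 66.7% in ΔZF1 ESC libraries, so at these few sites the ΔZF1 libraries did not follow the direction of the calls.

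**Figure D2:**
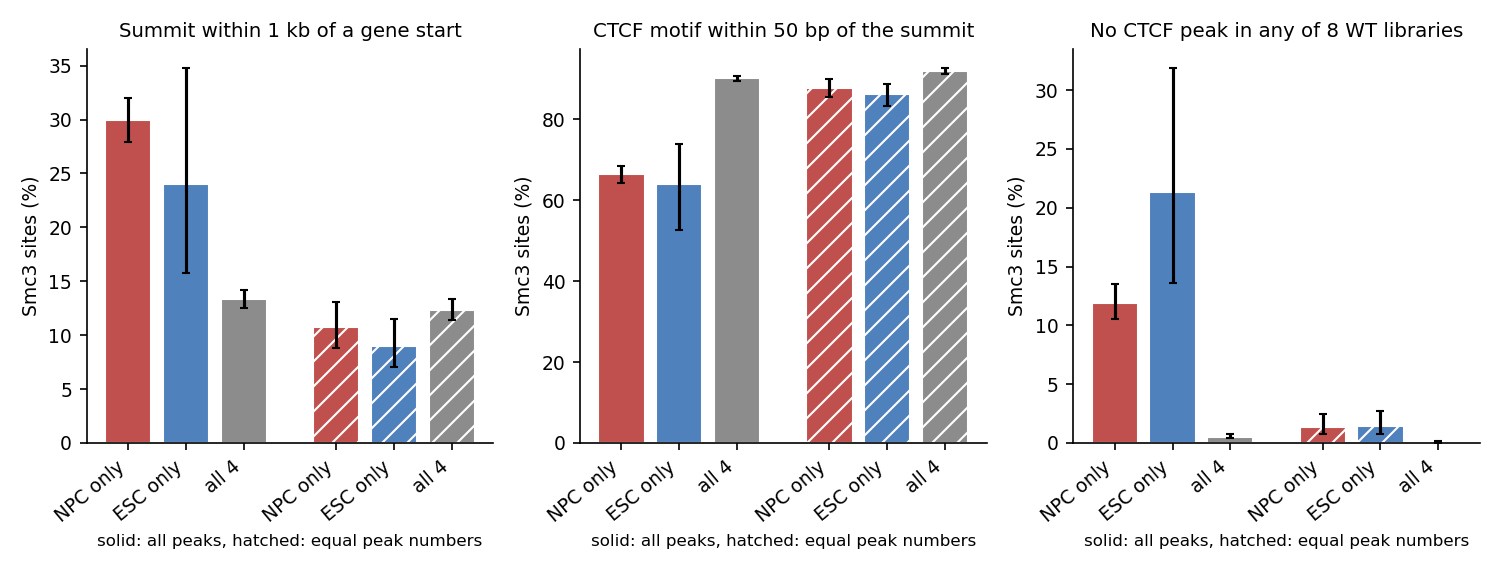
Percentage of Smc3 sites with the summit within 1 kb of a gene start (left), with the CTCF motif within 50 bp of the summit (middle) and without a CTCF peak in any of the 8 CTCF libraries of WT rescue cells (right), with 95% Wilson intervals that cover counting error only, where bars give NPC-only (red), ESC-only (blue) and sites called in all 4 libraries (grey), solid for all peaks and hatched for equal peak numbers. The promoter share of NPC-only sites is 29.9% in the full lists and 10.8% at equal peak numbers.

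The promoter share of the switched sites was no longer the higher one at equal peak numbers. It was 10.8% for the 809 NPC-only sites, 9.0% for the 622 ESC-only sites and 12.4% for sites called in all 4 libraries. The CTCF motif was present at 87.9%, 86.3% and 92.0%, against 86.5% of all sites at equal peak numbers, so the switched sites were near the share of all sites. A further 13 motifs were searched on both strands within 100 bp of the summit: the octamer ATGCAAAT of POU factors, AACAAAG (SOX), TCAAGGTCA (ESRRB), GGGCGG (KLF and SP factors), CAGATG (an E-box), CAGCTG (another E-box), TAATTA (homeodomain), GGAATG (TEAD), GCGCATGCG (NRF1), CCGGAAG (ETS), TGACGTCA (CREB), TGANTCA (AP-1) and AAGATGGC (YY1). The GC-rich GGGCGG, which can overlap the end of a CTCF core, was found at 21.1% of the full-list NPC-only sites, 13.3% of the ESC-only sites and 13% of all sites, but at 9.64%, 9.0% and 12.1% of them with equal numbers. The octamer, which Oct4 binds, was found at 0.70%, 1.33% and 0.77% in the full lists. The E-box CAGCTG was found at 12.5%, 8.00% and 11.8%, and CAGATG at 17.2%, 8.00% and 17.9%. For the other 9 motifs the NPC-only share was 0.21% to 8.35% and the share of all sites 0.22% to 9.26%. A match is a run of letters and not evidence of a bound factor.

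CTCF occupancy at the members was mixed. A CTCF site was taken as reproducible where at least 3 of the 4 libraries of a cell type had a peak. Of the 1868 NPC-only Smc3 sites, 28.4% had reproducible CTCF in both cell types, 13.1% in NPCs only, 8.73% in ESCs only and 49.8% in neither. Of the 75 ESC-only sites the shares were 13.3%, 5.33%, 20.0% and 61.3%, and of the sites called in all 4 Smc3 libraries they were 70.6%, 3.32%, 15.9% and 10.1%. Of all 30280 sites they were 34.4%, 6.12%, 14.2% and 45.3%. Most switched Smc3 sites therefore did not lie on a CTCF site that was called in the same cell type alone. No CTCF peak in any of the 8 libraries was found at 11.9% of the NPC-only and 21.3% of the ESC-only sites. The share of all sites was 12.3%, near that of the NPC-only sites. At equal peak numbers the NPC-only and ESC-only shares without a CTCF peak were 1.36% and 1.45%, against 3.00% of all sites.

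Cohesin libraries that had no part in choosing the sites separated the cell types in the same direction. For each of 12 libraries (Smc3 in ΔZF1 rescue, Rad21 in WT rescue and Rad21 in ΔZF1 rescue, each with 2 NPC and 2 ESC libraries) the percentage of ESC-only sites with a peak was subtracted from that of NPC-only sites. The NPC libraries exceeded the ESC libraries by 33.7 percentage points on average over these 3 kinds of library, with p = 0.00926 in a two-sided exact permutation test of the libraries within each kind, the smallest value its arrangements allow. In Smc3 libraries of ΔZF1 rescue cells, peaks covered 90.3% and 92.1% of the NPC-only sites and 50.7% and 49.3% of the ESC-only sites in NPCs, and 35.6% and 20.2% of the NPC-only sites and 62.7% and 49.3% of the ESC-only sites in ESCs. Both NPC libraries were above zero and both ESC libraries below it for each of the 3 kinds. The ΔZF1 Smc3 lists were longer in NPCs (30516 and 34104 peaks) than in ESCs (18023 and 12181). With these lists held to an equal peak number, NPC peaks covered 37.8% and 39.4% of the NPC-only and 2.67% and 5.33% of the ESC-only sites. ESC peaks then covered 13.3% and 20.2% of the NPC-only and 30.7% and 49.3% of the ESC-only sites.

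Rad21 coverage was low in absolute terms and had the same order. In WT rescue NPCs, Rad21 peaks covered 5.41% and 13.8% of the NPC-only sites, against 0.535% and 5.30% in WT rescue ESCs. They covered 0% and 2.67% of the ESC-only sites in WT rescue NPCs, against 8.00% and 20.0% in WT rescue ESCs. The equal-number NPC-only sites had Rad21 peaks at 25.8% and 49.6% in NPCs and at 3.83% and 27.7% in ESCs, and the ESC-only sites at 10.5% and 25.9% in NPCs and at 16.6% and 78.0% in ESCs. The ESC libraries overlapped the NPC range for NPC-only sites, where ESC replicate 2 also had the longest Rad21 list (10415 peaks), but the difference between the sets kept its sign in every library. On the Rad21 libraries alone, chosen as an alternative after the data were seen, the difference was 16 points with an exact permutation p of 0.0556, the smallest possible there. The Rad21 values also depended on list length: with every compared library held to an equal peak number, the NPC to ESC difference was 6.25 points in WT rescue (19.3 with all peaks) and 3.07 points in ΔZF1 rescue (12.6 with all peaks).

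CTCF calls in WT rescue cells also followed the sets, by less. The difference between NPC-only and ESC-only sites was 20.5 ± 5.34 percentage points in NPC libraries and 3.70 ± 2.93 in ESC libraries (SD, n = 4 each). The NPC libraries were 16.8 points higher, with p = 0.0286 in a two-sided exact permutation test, the smallest value that 4 against 4 libraries allow. Permuted within replicate numbers as a block, the exact p was 0.125, also the smallest possible. The per-library differences were 21.7, 19.4, 13.9 and 26.8 points in NPC replicates 1 to 4 and 7.23, 0.715, 4.90 and 1.96 points in ESC replicates 1 to 4, without overlap. Median peak width split the CTCF replicates into 1 and 4 (353 to 447 bp) against 2 and 3 (273 to 301 bp), and the NPC excess was 19.6 points within the first and 13.9 within the second, where 2 against 2 libraries allow no p below 0.333. The peak names inside the replicate 4 lists carry the replicate number 2, and whether replicate 4 is a separate library was not settled, which bears on n = 4.

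**Figure D3:**
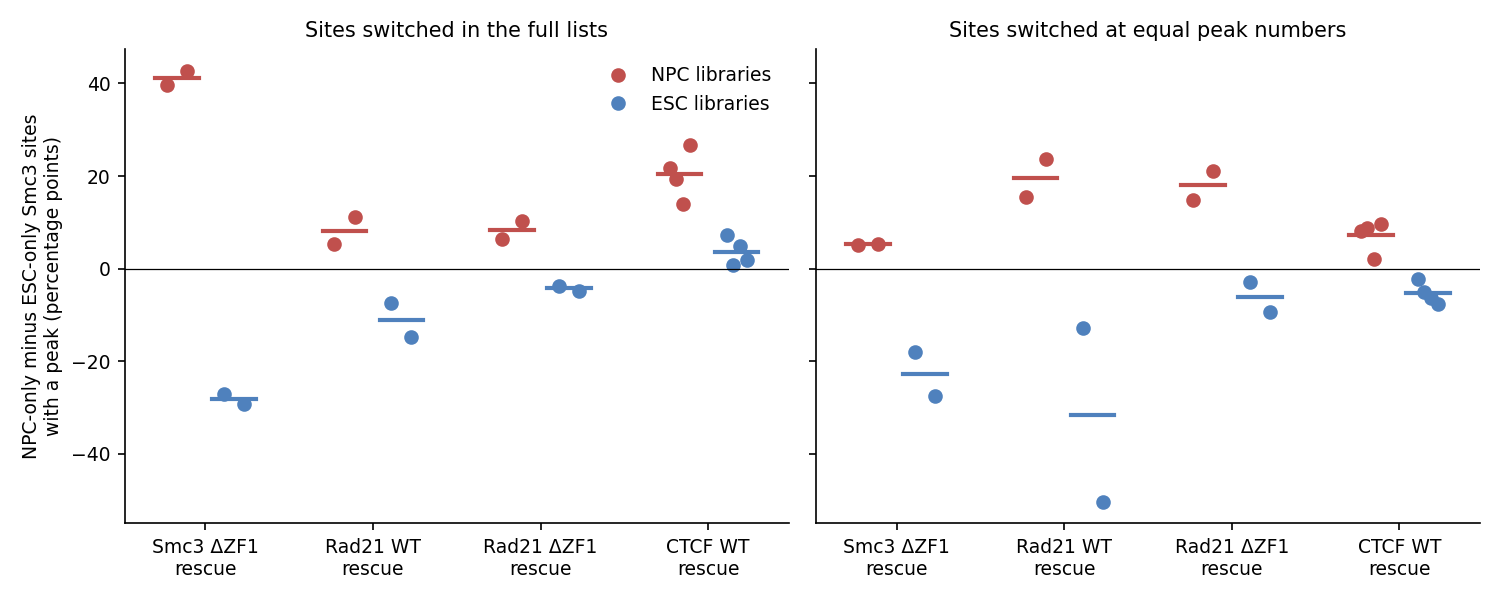
Percentage of NPC-only minus percentage of ESC-only Smc3 sites with a peak, in percentage points, for each library that did not choose the sites (points) with the group mean (bars), for sites switched in the full lists (left) and at equal peak numbers (right), NPC libraries in red and ESC libraries in blue. NPC libraries lie above ESC libraries in every column of both panels, and CTCF ESC libraries stay above zero in the left panel, at 0.715 to 7.23 points.

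NPCs of unmodified E14TG2a cells had Smc3 peaks at 33.6% and 40.9% of the NPC-only sites and at 12% and 14.7% of the ESC-only sites, against 88.1% and 86.0% of the sites called in all 4 libraries. For the equal-number sites the shares were 82.1% and 74.4% of the NPC-only sites and 69.9% and 56.3% of the ESC-only sites. Smc3 peaks of E14 ESCs were not analysed here, so this comparison has NPCs alone. The E14 cells also differed from the rescue cells in line and in treatment, which cannot be told apart here.

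The strongest NPC-only sites at equal peak numbers, named by the rule of the 15 highest mean percentiles, lay at genes of varied function. At the Pik3r4 site shown above the fold enrichment was 31.9 and 15.1 in NPC replicates 1 and 2, against 7.78 in ESC replicate 1 and no peak in ESC replicate 2. At the first Gabbr2 site it was 27.4 and 15.8 in NPCs, against 7.62 in ESC replicate 1 and no peak in ESC replicate 2. Gabbr2 held another of the 15 in an intron (chr4:46833158-46833483), with 28.7 and 13.8 in NPCs, against 5.11 in ESC replicate 1 and no peak in ESC replicate 2. Introns of Nrxn3, which encodes a presynaptic adhesion protein, and of Slc1a2, the glutamate transporter of astrocytes, held the next of them. The Nrxn3 intron site (chr12:89106431-89106801) had 32.9 and 13.6 in NPCs, against 5.38 in ESC replicate 1 and no peak in ESC replicate 2. The Slc1a2 intron site (chr2:102682161-102682522) had 24.3 and 15.8 in NPCs, against 6.41 in ESC replicate 1 and no peak in ESC replicate 2. Each of these 5 sites had a Rad21 peak in both WT rescue NPC libraries, and among the WT rescue ESC libraries only the Pik3r4 site had one, in 1 library.

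Others of the 15 were the Pex3 site and sites at Gm13003, Ttll7, Car4, Gm12753, Hykk, 4930555O08Rik, Cdh23 and Gm35514. Among those named, only the Pex3, Car4 and Hykk sites had no peak in either full ESC list. The Pex3 site had a fold enrichment of 25.2 and 16.4 in NPCs. The site 20529 bp downstream of the start of Car4, a membrane-bound carbonic anhydrase (chr11:84978072-84978532), had 26.0 and 12.5, and the site in an intron of Hykk, a hydroxylysine kinase (chr9:54931843-54932172), had 27.1 and 11.5. The median NPC-only site of the full lists had 8.23 and 5.14, which sites chosen for high fold enrichment exceed by that choice. Rad21 calls were less uniform at the sites of this paragraph. Both WT rescue NPC libraries had a Rad21 peak at the Gm13003, Car4 and Gm12753 sites, and 1 had one at the Pex3, Hykk, 4930555O08Rik and Gm35514 sites. Neither had one at the Ttll7 and Cdh23 sites. Of the WT rescue ESC libraries, 1 had a Rad21 peak at the Pex3, 4930555O08Rik and Gm35514 sites.

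The strongest ESC-only sites were present in the full list of NPC replicate 1 in 15 of 15 cases. The Polr1d site had a fold enrichment of 12.9 in NPC replicate 1 and no peak in NPC replicate 2, against 17.1 and 10.8 in ESCs. The Dgcr6 promoter site had 9.84 in NPC replicate 1 and no peak in NPC replicate 2, against 16.9 and 10.6 in ESCs. Rad21 peaks covered the Dgcr6 site in neither WT rescue NPC library and in both WT rescue ESC libraries, and all 8 CTCF libraries had a peak there. The remaining 13 lay at Igsf21, Fam81a, Sh3kbp1, Efcab2, 3110062G12Rik, Cage1, Gm36999, 2310020H05Rik, AC154685.1, Tsr2, Ttll7, Xpnpep2 and Syt9. Ttll7, which encodes a tubulin polyglutamylase, held an NPC-only and an ESC-only intronic site at different positions, one of 14 genes with both kinds at equal peak numbers.

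At the 6512 sites called in all 4 libraries the rank of the fold enrichment was compared. The ranks within each library were turned into normal scores, so that a difference is in SD units of the score and is not a fold change, and were tested with limma (Benjamini-Hochberg adjusted p under 0.05 over all 6512). The rank was higher in NPCs at 416 sites (6.39%) and lower at 388 (5.96%), and 1881 sites had an unadjusted p under 0.05. The smallest difference called was 1.15 in either direction, and the largest were 3.10 and −3.43. The count rested on the NPC libraries in particular, falling to 212 calls without NPC replicate 1 and to 274 without NPC replicate 2, against 754 and 512 without ESC replicates 1 and 2.

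Of the 10 largest rises, 5 lay at genes known only by a number or clone name. A site at −7689 bp from the start of Neurog2, the proneural transcription factor (chr3:127625252-127625655), had a fold enrichment of 36.4 and 27.2 in NPC replicates 1 and 2, against 7.28 and 5.69 in ESC replicates 1 and 2, a rank difference of 2.93 (SE 0.42, adjusted p = 0.000683). An intronic site of Maml3, a Notch co-activator (chr3:51701271-51701792), had 34.9 and 16.7 in NPCs, against 6.99 and 3.89 in ESCs (3.07, SE 0.37, adjusted p = 0.000288). A site at −1779 bp from the start of Igf1r, the receptor of insulin-like growth factor 1 (chr7:67950626-67951366), had 27.8 and 17.2 in NPCs, against 6.50 and 3.73 in ESCs (2.98, SE 0.38, adjusted p = 0.000288). In each case both NPC libraries were above both ESC libraries, which the choice of the largest differences made likely in advance. CTCF was called in all 8 WT rescue libraries at all 3 sites, which was not so for Rad21. Rad21 was called in both WT rescue NPC libraries and both WT rescue ESC libraries at the Neurog2 site, in both NPC libraries and no ESC library at the Maml3 site, and in none of the 4 at the Igf1r site.

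Sites at 2 gene starts were also among the 10 largest rises. The Pink1 site, at −37 bp from the start of the gene for a mitochondrial quality control kinase (chr4:138325920-138326561), had 24.6 and 13.6 in NPCs, against 5.59 and 3.27 in ESCs. The Tph2 site, 77 bp downstream of the start of the neuronal serotonin synthesis gene and in its untranslated region (chr10:115184692-115185153), had 28.1 and 15.8 in NPCs, against 7.15 and 3.8 in ESCs. The other 5 were at 1700025H01Rik, Gm43154, AC117261.1, Gm35549 and AC112949.1, with rank differences of 2.75 to 3.10.

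The 10 largest falls were led by sites at Igsf21 and Aox2. The Igsf21 site had a fold enrichment of 8.62 and 3.41 in NPCs, against 16.9 and 10.9 in ESCs, a rank difference of −3.43 (SE 0.41, adjusted p = 0.000288). An intronic site of the aldehyde oxidase gene Aox2 (chr1:58296297-58296682) had 10.4 and 4.38 in NPCs, against 17.8 and 12.1 in ESCs (−3.07, SE 0.40, adjusted p = 0.000288). A site 53866 bp downstream of the start of S1pr1, a sphingosine 1-phosphate receptor (chr3:115661062-115661515), had 13.3 and 6.29 in NPCs, against 21.3 and 14.9 in ESCs (−2.69, SE 0.39, adjusted p = 0.000687). At all 3 sites both NPC libraries were below ESC replicate 1, which the choice of the largest differences likewise made likely. Intronic sites of the netrin receptor gene Unc5b, with 11.2 and 4.24 in NPCs against 17.9 and 8.62 in ESCs, and of the cytokine receptor kinase gene Jak2, with 10.1 and 3.31 in NPCs against 11.4 and 8.26 in ESCs, also fell in rank. Efcab2, Iqgap1, Pim3, 4930539M17Rik and A530053M12Rik completed the 10, with rank differences of −2.80 to −2.46.

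**Figure D4:**
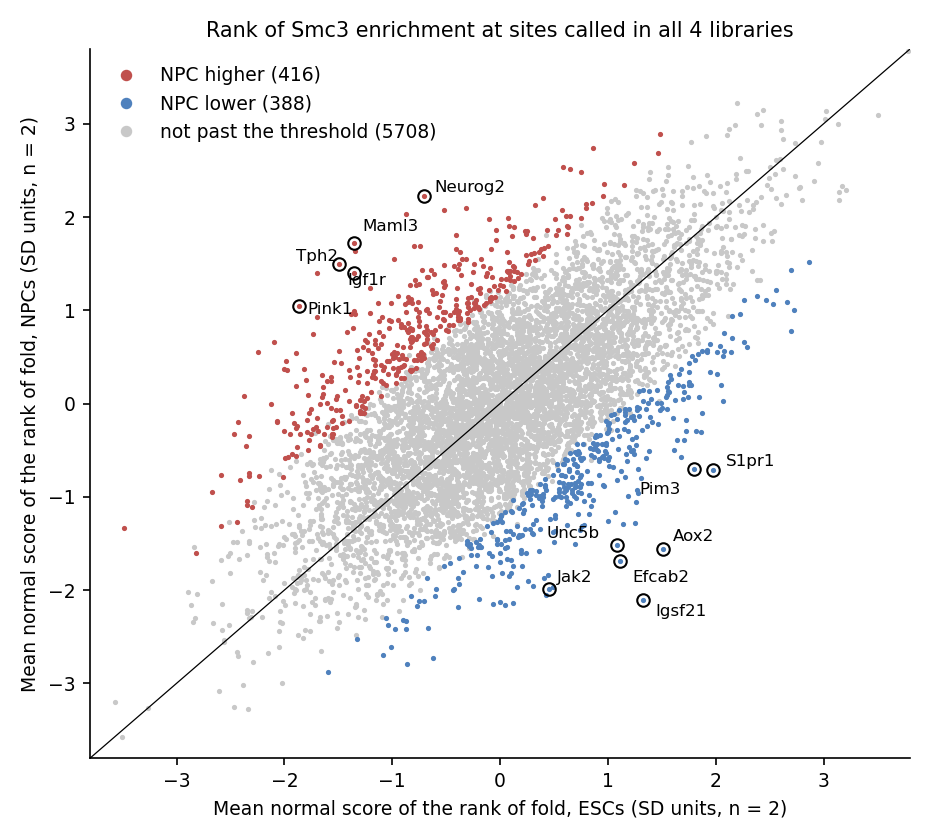
Mean normal score of the rank of Smc3 fold enrichment in NPCs (vertical axis) against ESCs (horizontal axis), in SD units, for the 6512 sites called in all 4 libraries, with the diagonal of equal rank, where red and blue points passed the limma threshold (416 higher and 388 lower in NPCs), grey points did not, and circles mark sites named in the text. The Neurog2 site lies above the diagonal by 2.93 and the Igsf21 site below it, at −3.43.

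The rank differences were read again in the Smc3 libraries of ΔZF1 rescue cells, which took no part in the test. Of the 416 sites higher in NPCs, 371 had a peak in all 4 of these libraries, with a median percentile of 95.1 in ΔZF1 NPCs and 59.7 in ΔZF1 ESCs, and both NPC libraries were above both ESC libraries at 368 (99.2%). Sites that did not pass the threshold had 87.7 in ΔZF1 NPCs and 74.6 in ΔZF1 ESCs, with both NPC libraries above at 59.2% of 5105. Of the 388 sites lower in NPCs, 363 had a peak in all 4, with a median of 75.2 in ΔZF1 NPCs and 86.3 in ΔZF1 ESCs, and both NPC libraries were below both ESC libraries at 196 (54.0%), against 6.95% of the sites that did not pass. The order therefore recurred at 99.2% of the higher and 54.0% of the lower sites, in libraries whose NPC lists were longer (30516 and 34104 peaks) than their ESC lists (18023 and 12181).

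Rad21 calls crossed over between these sets. In WT rescue NPC replicates 1 and 2, Rad21 peaks covered 65.6% and 84.4% of the sites whose Smc3 rank was higher in NPCs, and 35.8% and 54.1% of those lower in NPCs. In WT rescue ESC replicates 1 and 2 they covered 31.5% and 71.4% of the higher sites, and 57.7% and 92.8% of the lower ones. With these sites in place of the switched ones, an alternative added after the data were seen, the difference over the 12 cohesin libraries was 36.9 points (two-sided exact permutation p = 0.00926, the smallest possible), and that over the CTCF libraries was 10.6 points (two-sided exact permutation p = 0.0286, the smallest possible). The ranks of CTCF fold enrichment were read over 8 libraries. Complete separation is harder to reach there than over the fewer Smc3 libraries of ΔZF1 cells, so those shares cannot be compared. At the 219 higher sites with a CTCF peak in all 8 libraries the median percentile was 85.4 in NPCs and 82.4 in ESCs. All NPC libraries were above all ESC libraries at 5 of them (2.28%). At 137 lower sites the median was 72.7 in NPCs and 86.9 in ESCs, with all NPC libraries below at 8 (5.84%). At 2365 sites that did not pass the threshold it was 79.1 in NPCs and 83.5 in ESCs. All NPC libraries were above at 0.296% of these and below at 1.56%. Against these sites, both sets shifted in the direction of their Smc3 rank. CTCF was reproducible in both cell types at 84.1% of the higher and 64.9% of the lower sites, and in ESCs only at 7.69% and 21.9%. Among the 5708 sites that did not pass the threshold the shares were 70.0% in both cell types and 16.1% in ESCs only.

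**Figure D5:**
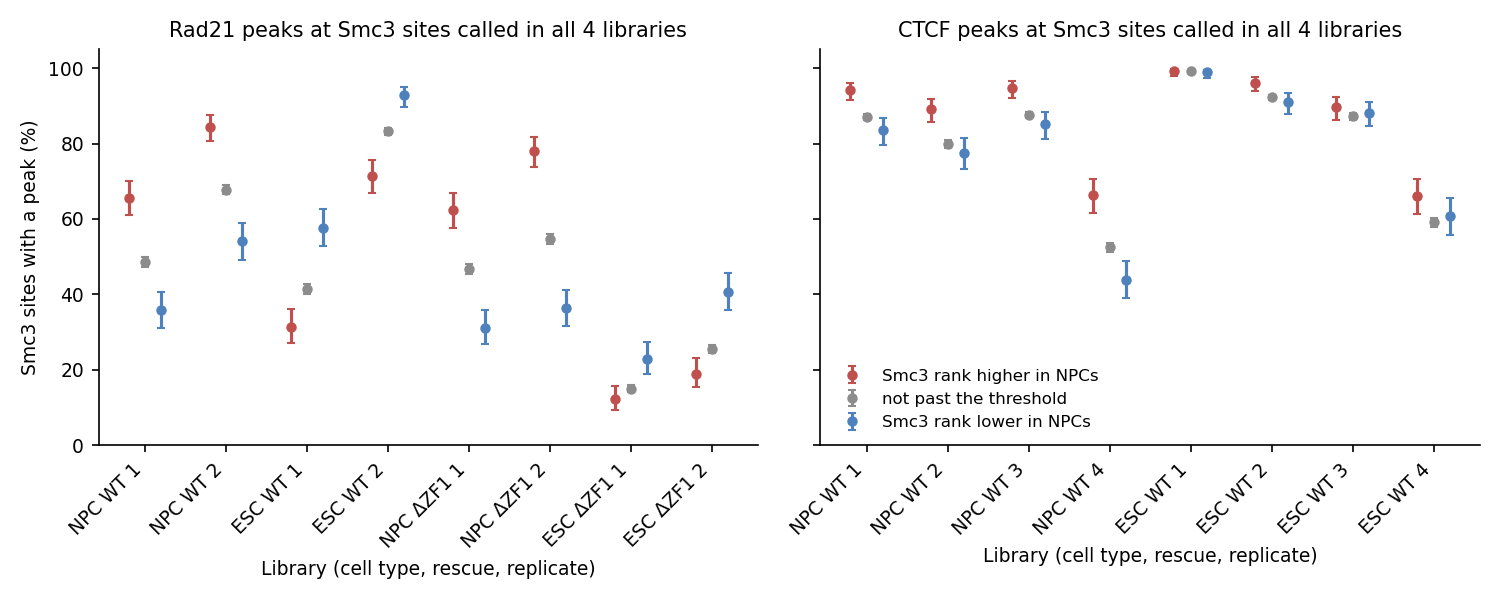
Percentage of Smc3 sites called in all 4 libraries that had a Rad21 peak (left) or a CTCF peak (right) in each library, with 95% Wilson intervals, for sites whose Smc3 rank was higher in NPCs (red, 416), lower in NPCs (blue, 388) or not past the threshold (grey, 5708). For Rad21 the order of red and blue reverses between NPC and ESC libraries, as at 65.6% and 35.8% in WT NPC replicate 1 against 31.5% and 57.7% in WT ESC replicate 1.

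Genes of the cell types were then read from lists of pluripotency, neural progenitor, neuron, glia, mesendoderm, trophectoderm, Hox, cohesin, housekeeping, imprinted and signalling genes, each with its body and 5000 bp upstream. The lists together held 498 Smc3 sites, of which 37 were NPC-only (7.43%, against 6.17% of all sites) and 1 was ESC-only. With equal numbers 19 of 184 sites were NPC-only (10.3%, against 6.51%) and 13 were ESC-only (7.07%, against 5.01%). The neural progenitor list had 7 NPC-only sites of 75 (9.33%) and the pluripotency list 6 of 48 (12.5%), and with equal numbers the shares were 3 of 22 (13.6%) and 1 of 16 (6.25%), so the order of the 2 lists depended on the setting. Of 99 list sites called in all 4 libraries, 7 were higher and 7 lower in NPCs by rank (7.07% each, against 6.39% and 5.96% of all 6512 sites). Without Fgfr2 the shares were 4.65% and 5.81%. The gene model of Fgfr2 spans 2961 kb in the annotation used and 104 kb in RefSeq, with 57 sites in the first span and 3 in the second. Without Fgfr2 the lists had 35 NPC-only sites of 441 (7.94%), and 15 of 160 (9.38%) at equal peak numbers.

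A total of 5 list genes held a site that was NPC-only in both settings, and none held one that was ESC-only in both. An intronic site of Nfib, a transcription factor of glial and neuronal differentiation (chr4:82643023-82643365), had a fold enrichment of 19.8 and 9.39 in NPC replicates 1 and 2, and it was the only one of the 5 with Rad21 called in both WT rescue NPC libraries. Rad21 was called in 1 of them at the Rbfox3 site and in neither at the Nr5a2, Irx5 and Fgfr2 sites, and no WT rescue ESC library had a Rad21 peak at any of the 5. An intronic site of Rbfox3, which encodes the neuronal marker NeuN (chr11:118573599-118573928), had 18.9 and 8.91. An intronic site of Nr5a2, a nuclear receptor that sustains pluripotency (chr1:136866738-136867021), had 15.6 and 9.07. The site of Irx5, a homeobox gene of neural patterning, lay at −1.78 kb from its start in the intron of the divergent transcript Crnde (chr8:92355635-92356004) and had 8.92 and 5.64. A site in the long Fgfr2 model (chr7:132471345-132471631), 652 kb from its start and outside the RefSeq gene, had 15.1 and 8.07. At all 5 sites both Smc3 libraries of ΔZF1 NPCs had a peak, and of the ΔZF1 ESC libraries 1 had a peak at the Irx5 and Fgfr2 sites and none at the other 3. Smc3 peaks of E14 NPCs were present in both libraries at the Nfib, Irx5 and Fgfr2 sites and in neither at the Rbfox3 and Nr5a2 sites.

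Further list genes changed in rank at sites called in all 4 libraries. A site at −3.53 kb from the start of Sox1, a transcription factor of the neural plate, had 31.9 and 24.5 in NPCs, against 12.4 and 8.63 in ESCs (1.39, SE 0.41, limma adjusted p = 0.0364). An intronic site of Esrrb, a pluripotency regulator, also rose in rank, with 39.8 and 18.8 in NPCs against 11.2 and 6.53 in ESCs (1.91, SE 0.37, limma adjusted p = 0.00409). Sites of Stat3, which transmits the LIF signal, and of Ank3, a neuronal ankyrin, rose by 1.41 and 1.85. Sites of Aldh1l1, an astrocyte marker, fell by 1.32 and by 1.60, and sites of Elavl3, Robo1 and Esx1 fell by 1.22, by 1.33 and by 1.69. The long Fgfr2 model accounted for the other 3 rises and 2 falls. Neurog2, besides its upstream site, had an NPC-only site in its coding exon at equal peak numbers, with 11.8 and 7.02 in NPCs.

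Chromosomes differed in their share of switched sites at equal peak numbers, which over all sites was 6.51% NPC-only and 5.01% ESC-only. Of 923 sites on chromosome 11, 75 were NPC-only (8.13%) and 24 ESC-only (2.60%), and of 378 on chromosome 14, 38 (10.1%) and 15 (3.97%). Of 318 on chromosome 16, 8 were NPC-only (2.52%) and 26 ESC-only (8.18%). In the full lists the NPC-only shares of chromosomes 11 and 14 were 6.44% and 6.67%, near the 6.17% of all sites, and that of chromosome 16 was 3.40%. Among sites called in all 4 libraries, the 69 on the X chromosome had a median rank difference of −0.49, against medians of −0.13 to 0.11 on the autosomes. Sites of one direction also lay near each other: of the neighbouring sites within 100000 bp of an NPC-only site 9.37% were NPC-only, against 6.05% of all neighbouring sites, and of those within that distance of an ESC-only site 6.61% were ESC-only, against 4.78%. Of the neighbours of sites lower in NPC rank, 9.88% were lower too, against 5.43% of all. Neighbours of sites higher in NPC rank were higher at 4.57%, against 6.61% of all. These are descriptions of the lists, with no test.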

How the data were processed

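The authors aligned paired-end ChIP-seq reads to mm10 with Bowtie2, removed alignments with mapping quality under 30, duplicates (Picard) and blacklisted regions, and called peaks per sample with MACS2 at q 0.01. The sources used here give neither tool versions nor the input used for each list. The deposited lists hold the fold enrichment at each summit (a ratio to local background), −log10 p and −log10 q values and a display score, a rescaled q of the authors' peak caller. From fold and p, whole fragment numbers were recovered within 0.002 at 100% of the peaks of the 4 Smc3 lists with −log10 p up to 60, which gave the background coverage as depth.

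Overlapping peaks were merged, and the highest fold in a site was a library's value. Gene models were GENCODE vM21. Ranks were tested with limma 3.58.1 in R 4.3.3 without a replicate block, counts of calls by exact permutation of libraries. With 2 against 2 libraries no exact p below 0.333 is possible, so switched counts carry no test. On simulated data for the NPC to ESC rank test over 6512 sites, 94% of 200 sites shifted by 2 SD were recovered with 10 false calls, and 1% of those shifted by 1 SD. The study's read-count test (DiffBind) was not repeated, since no read counts were analysed here. Sites were named as the 15 highest switched sites per direction at equal peak numbers, up to 10 limma sites per direction by size of difference, and list genes with a site switched in both settings. Other list genes with a limma call, the second Neurog2 site and the 11 ESC-only sites of both settings were named after their values were seen. One site that the rule names is not reported here. Members and gene lists were chosen with earlier results of these data known. Wilson intervals (95%) cover counting error only. Alternatives were the peak threshold, the joining of peaks, equal peak numbers, other normalization, libraries left out and a replicate block.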

Additional observations from a re-analysis of the deposited data

Results flagged for a closer look

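At the Smc3 sites whose rank differed between NPCs and ESCs, CTCF NPC WT rescue replicate 4 stood apart from the other NPC libraries. Its percentage of higher-ranked sites with a CTCF peak exceeded that of lower-ranked sites by 22.5 percentage points, and the gap to the nearest NPC library was 0.849 of the range of the 4, above Dixon's 95% critical value for 4 libraries. Of 24 groups of 4 libraries examined in this way, chance would mark about 1 in 20. Its peaks covered 66.3% of the higher and 43.8% of the lower sites, against 89.2% to 94.7% and 77.6% to 85.1% in NPC replicates 1 to 3.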

How the results depend on the processing

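The numbers of switched sites depended on how many peaks a list held. They were 1868 NPC-only and 75 ESC-only in the full lists, 809 and 622 at equal peak numbers, and 1534 and 49 at a −log10 q of 5 or more, so the ESC-only count moved most. Leaving out 1 library gave 1947 to 11099 NPC-only and 81 to 1265 ESC-only sites. The rank test made 804 calls (416 higher, 388 lower in NPCs), and 212 to 754 without 1 library (114 to 399 higher, 98 to 355 lower), where the lone library of a cell type is assumed to vary like the others. The shared replicate numbers mark no stated batch, and the deviations of same-numbered Smc3 libraries correlated at 0.155. With the replicate number as a block limma made 1335 calls (686 higher, 649 lower), and read inside each block, 11289 sites were called in the NPC library alone and 1315 in the ESC library alone for number 1, and 7061 and 1528 for number 2. The CTCF difference of 16.8 points had p = 0.125 with exact permutation inside the replicate block, the smallest possible there, and was 19.6 points in replicates 1 and 4 and 13.9 in replicates 2 and 3 (exact p = 0.333 in both, the smallest possible). Leaving out 1 library gave 14.6 to 18.9 points. The cohesin difference of 33.7 points was 22.4 to 34.9 in every planned setting and had an exact p of 0.0313 with the block. On Rad21 libraries alone it was 16 points (exact p = 0.0556, the smallest possible). None of the tested differences changed direction. The limma calls did change order at equal peak numbers, with 322 higher and 328 lower in NPCs. Several descriptive orders also changed at equal peak numbers. The promoter share of NPC-only sites was 10.8% against 12.4% of shared sites (29.9% and 13.4% in the full lists). GGGCGG was found at 9.64% of NPC-only and 12.1% of all sites (21.1% and 13%). The CTCF difference within ESC libraries averaged −5.30 points (3.70). The NPC-only share was 13.6% in the neural progenitor list and 6.25% in the pluripotency list (9.33% and 12.5%). Motif and promoter shares moved with their definitions: with at most 1 mismatch the CTCF core was found at 33.6% of NPC-only, 29.3% of ESC-only and 64.8% of shared sites, and within 5 kb of a gene start lay 44.8%, 36% and 30.5%. Over all sites these shares were 46.8% for the core and 32.8% for the gene start. Peak lists show only what passed the caller, so a missing call bounds nothing.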
